A study of Mus musculus with 45 samples.

Results

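The genes described here encode the potassium channels of hippocampal neurons and glia, with their accessory subunits. They were taken as every gene in the deposited count table whose mouse symbol begins with Kcn, other than overlapping transcripts with symbols ending in os or ot1, with a mean of at least 1 CPM (counts scaled to the library's total count on genes) over all 45 libraries. Of 54532 genes in the table, 68 met this rule. Another 28 genes with such symbols lay under the limit. The members nearest to it were Kcna5, Kcng3 and Kcnh5, with means of 1.40, 1.48 and 1.88 CPM, and the nearest genes outside were Kcng4, Kcnh6 and Kcnk13, with 0.912, 0.862 and 0.813 CPM. The limit used the mean over all conditions and no comparison between them. For Kcne4 and Kcng3, condition means lay on both sides of it, at 0.444 to 7.50 and 0.754 to 2.02 CPM. Kcne4 was lowest in the controls and met the limit only through conditions where it was higher, so its membership is not independent of its rise. By symbol root, 6 members were Kv1 subunits (Kcna), 2 were Kv2 (Kcnb), 4 were Kv3 (Kcnc), 3 were Kv4 (Kcnd), 4 were Kv7 (Kcnq) and 6 belonged to the EAG, ERG and ELK families (Kcnh). A further 8 were silent subunits (Kcnf, Kcng, Kcns and Kcnv), 6 were BK channels, their beta subunits or the sodium-activated channels (Kcnma, Kcnmb, Kcnt and Kcnu) and 3 were SK channels (Kcnn). The remaining members were 9 inward rectifiers (Kcnj), 7 leak channels of the K2P family (Kcnk), 9 accessory subunits (Kcnab, Kcne and Kcnip) and 1 antisense RNA, Kcnmb4os2.

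RNA was sequenced from primary hippocampal neurons of newborn C57BL/6N mice, kept with B27 and rat serum and given AraC, which removes dividing cells, early in culture. Per the labels, the treatments were done on day in vitro 10 or 11. Every condition had 5 libraries, 1 from each of the culture preparations numbered 1, 3, 6, 7 and 8, and values for single libraries are always given in that order. Control cultures received no drug. Cultures of the conditions Bic 0.5 h, Bic 1 h and Bic 2 h received bicuculline (Bic, 50 µM) for these times. Bic blocks GABA-A receptors and sets off action potential (AP) firing. In the short protocol (SP), 0.5 h of Bic was followed by 0.5 h in which tetrodotoxin (TTX, 1 µM), which stops AP firing, or TTX with NMDA (30 µM) was added in the continued presence of Bic. The long protocol (LP) began with 1 h of Bic alone, after which TTX, TTX/NMDA or TBOA was present for another 1 h, TBOA (50 µM) being a blocker of glutamate uptake that lets synaptic glutamate spill over. The passive effect is the difference between TTX and Bic of the same total duration, the active effect that between TTX/NMDA and TTX, and the total effect that between TTX/NMDA and Bic. All cultures were mixtures of cells, and no cell type was sorted.

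Potassium channels carry outward current that repolarizes a neuron after each AP and holds its resting potential. Kv1 channels sit along axons and limit repetitive firing, Kv2 channels with their silent partner subunits carry the delayed rectifier of the soma, Kv3 channels allow very fast repolarization, Kv4 channels carry the A-type current of dendrites, and Kv7 channels carry the slow M current that restrains bursts. Calcium-activated BK and SK channels shape the afterhyperpolarization. Inward rectifiers and K2P channels conduct near rest, and some inward rectifiers are opened by G proteins or take up extracellular potassium in astrocytes.

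Total counts ranged from 11316580 to 81129276 per library, a 7.17-fold range. The control library of preparation 3 stood apart from its group. Its root mean square log2 distance from the mean of the other libraries of its condition was 0.289, against 0.1505 to 0.241 in the other 44 libraries. Calls against the control that were lost without this library are named, and the changed counts are given. Calls gained without it are not named. Neuronal markers (Rbfox3, Map2, Tubb3, Snap25, Syt1 and Stmn2) summed to 6937 to 7592 CPM in the controls. Markers of glutamatergic neurons summed to 1805 to 2779.9 CPM, those of GABAergic neurons to 1204 to 1789.7 CPM and those of astrocytes to 998 to 1318 CPM, so markers of all these cell types were present. Microglial markers were at most 4.17 CPM each.

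In untreated cultures, levels per length (CPM per kb of exon) ranged from 0.163 to 45.3 among the members, with a median of 6.37. The highest were Kcnj4, a strong inward rectifier, at 45.3 ± 2.68 CPM per kb, and Kcnab2, a beta subunit of Kv1 channels, at 43.7 ± 5.27 (SD, n = 5). These differed by less than their spread. Kcnk1, a K2P channel, followed at 26.5 ± 1.29, Kcnj3, a subunit of G-protein-gated channels, at 26.5 ± 2.29, and Kcna6, a Kv1 subunit, at 23.9 ± 1.45 CPM per kb. The SD intervals of these 3 overlapped. Kcnd2, the main dendritic Kv4 subunit, was at 22.7 ± 2.44 and its partner Kcnip2 at 21.999 ± 2.83 CPM per kb. The lowest was Kcne4, an accessory subunit that damps Kv channels, at 0.163 ± 0.0873 CPM per kb. Inward rectifiers made up 16.5% of the summed level per length, accessory subunits 14.4%, Kv1 subunits 10.9% and K2P channels 10.7%. Among the voltage-gated classes, Kv3 held 9.701%, Kv7 9.597% and Kv4 5.9005%.

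The spread of each member was described by its range over condition means and its range over preparation means. On the log2 scale, the range over the 9 condition means was 0.165 to 4.02 (median 0.539), and the range over the 5 preparation means was 0.103 to 1.55 (median 0.313). The range between conditions was the larger in 48 members and that between preparations in 20. A range over 9 means of 5 libraries tends to exceed a range over 5 means of 9 libraries even without any effect of treatment. These counts therefore do not show which source of variation was larger. LP TTX/NMDA was the condition with the lowest mean in 41 members and with the highest in 9. The largest ranges between preparations were those of Kcne4, at 1.55, highest in preparation 3 and lowest in 8, and Kcnj10, the main inward rectifier of astrocytes, at 1.17, highest in preparation 7 and lowest in 8.

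**Figure D1:**
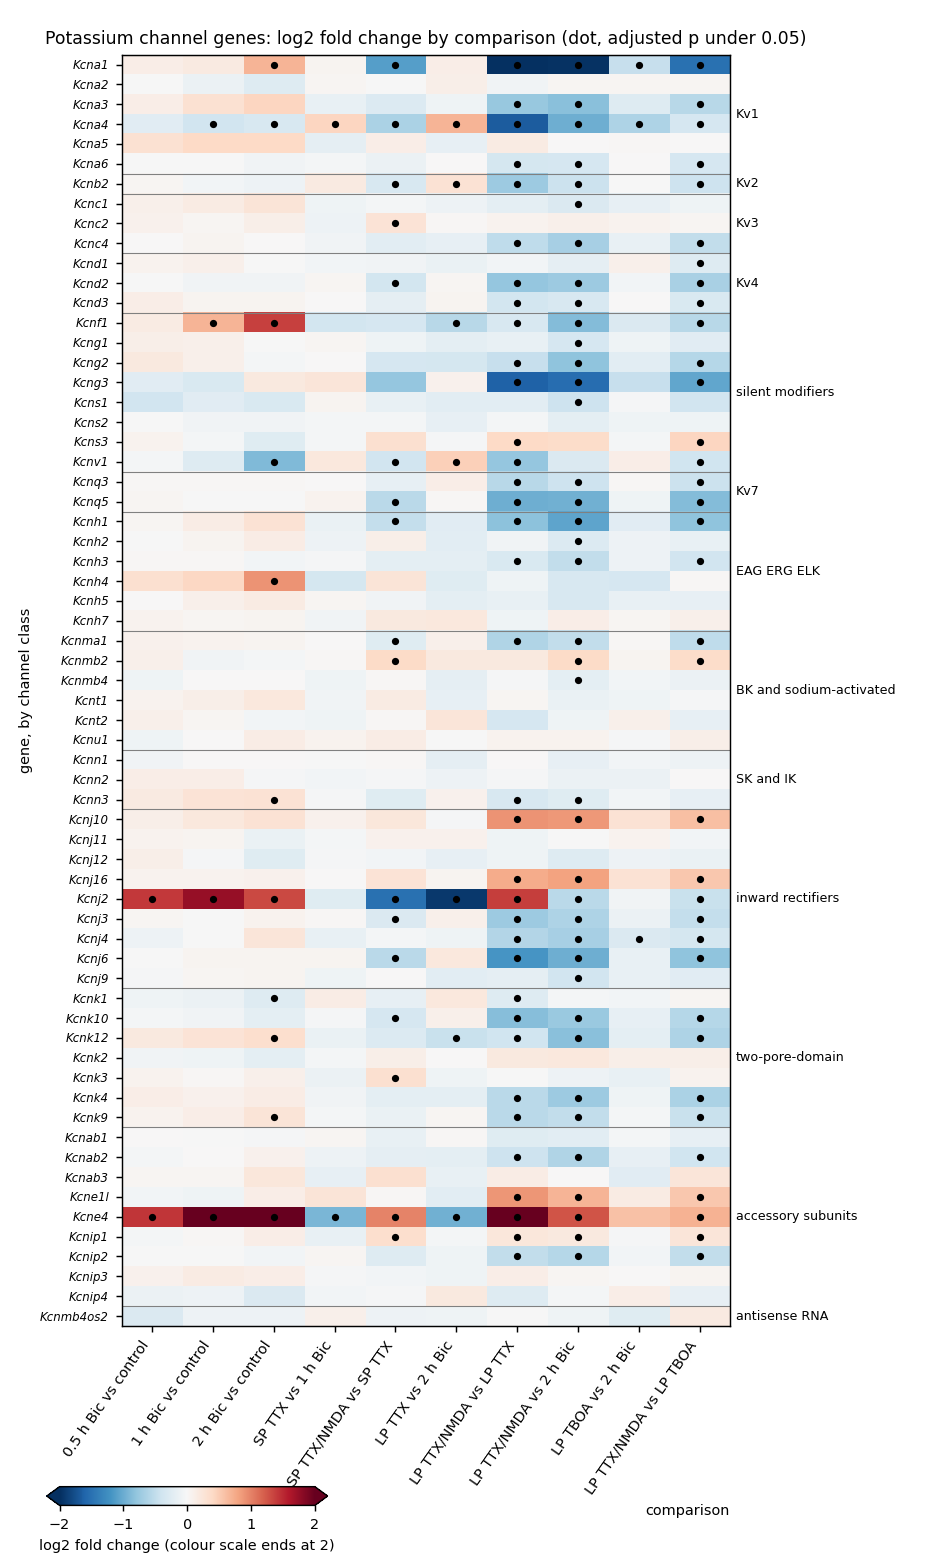
Heat map of log2 fold changes (color scale, log2 units) for members (rows, by class) in 10 comparisons (columns); a dot marks a member with an adjusted p-value under 0.05. The columns with LP TTX/NMDA hold the most dots, and against LP TTX the log2 fold change was −2.10 for Kcna1 and 2.21 for Kcne4.

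Promoters of 48 of the 68 members, in 71 windows, were found in RefSeq (GRCm38.p6), each window holding 250 bases before and 50 bases after a transcript's start. The windows of the 4 members that changed after 1 h of Bic are printed here 5′ to 3′, since these genes recur in most comparisons. Kcnj2 lies at chr11:111065914-111066213 (plus strand), Kcne4 at chr1:78816661-78816960 (plus strand), Kcnf1 at chr12:17176839-17177138 (minus strand) and Kcna4 at chr2:107290339-107290638 (plus strand). Capitals mark matches, on either strand, to the CRE core TGACG (the site of CREB) or the EGR motif GCGNGGGCG.
Kcnj2: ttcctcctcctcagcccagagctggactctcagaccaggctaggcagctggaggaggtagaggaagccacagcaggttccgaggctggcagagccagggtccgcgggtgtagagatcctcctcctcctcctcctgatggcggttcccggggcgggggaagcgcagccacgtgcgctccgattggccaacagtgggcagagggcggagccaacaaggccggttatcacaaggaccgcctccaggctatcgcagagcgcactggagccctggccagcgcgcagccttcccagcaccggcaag
Kcne4: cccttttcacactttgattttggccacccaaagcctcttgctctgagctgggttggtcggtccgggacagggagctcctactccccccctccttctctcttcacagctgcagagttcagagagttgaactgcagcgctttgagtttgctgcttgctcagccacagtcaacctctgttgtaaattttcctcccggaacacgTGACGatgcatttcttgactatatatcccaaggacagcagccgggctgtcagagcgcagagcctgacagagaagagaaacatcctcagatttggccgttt
Kcnf1: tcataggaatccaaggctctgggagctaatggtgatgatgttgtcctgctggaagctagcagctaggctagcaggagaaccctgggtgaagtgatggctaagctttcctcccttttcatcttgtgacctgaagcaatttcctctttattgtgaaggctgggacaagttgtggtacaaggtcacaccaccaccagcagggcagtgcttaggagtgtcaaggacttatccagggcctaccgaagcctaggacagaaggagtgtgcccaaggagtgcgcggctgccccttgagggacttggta
Kcna4: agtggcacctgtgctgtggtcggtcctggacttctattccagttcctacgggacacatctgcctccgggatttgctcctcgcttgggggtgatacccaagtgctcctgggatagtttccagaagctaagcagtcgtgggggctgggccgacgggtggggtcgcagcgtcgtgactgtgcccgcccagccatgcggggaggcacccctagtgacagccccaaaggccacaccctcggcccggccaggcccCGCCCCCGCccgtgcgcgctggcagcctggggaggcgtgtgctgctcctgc

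The Kcne4 window held TGACG beginning 50 bases before the start, and the Kcna4 window held the EGR motif on the opposite strand beginning 1 base before it. No match was found in the Kcnj2 and Kcnf1 windows. Over all 32851 RefSeq windows, 20.8% held the CRE core, against 15.5% of the members' windows (11 of 71). The full CRE TGACGTCA, which contains the core, was in 1.79% of all windows and in 0 of the members'. The EGR motif was in 5.55% of all windows and in 4 of the 71 (Kcna4, Kcng3, Kcnk2 and Kcnt2). The AP-1 motif TGANTCA was in 7.81% of all windows and in 3 of the 71 (Kcnip3, Kcnip4 and Kcnk2), and the CArG box was in 1.63% and in 0. These are matches of letters in a short window.

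The first question was which potassium channel genes respond to AP firing. After 0.5 h of Bic, 2 of the 68 members rose and 0 fell, where 0.573% of all 13601 genes with a mean of at least 1 CPM were called higher and 0% lower, and 4 members had an unadjusted p-value under 0.05. Those that rose were Kcnj2, a strong inward rectifier that sets the resting potential (chromosome 11, 111066164 to 111076821, GRCm38), and Kcne4 (chromosome 1, 78816758 to 78820028). Kcnj2 stood at 12.7, 7.88, 12.3, 8.96 and 9.63 normalized CPM in the control libraries and at 15.6, 30.3, 40.6, 22.8 and 26.5 after 0.5 h. Every Bic library lay above every control library, and the log2 fold change, given with its standard error (SE), was 1.42 (SE 0.14, adjusted p = 9.5e-11). Kcne4 stood at 0.435, 0.816, 0.412, 0.2999 and 0.208 CPM in the controls and at 0.5598, 1.49, 1.59, 0.968 and 1.05 CPM after 0.5 h. It was higher in 5 of 5 preparations but the groups overlapped, with a log2 fold change of 1.44 (SE 0.32, adjusted p = 0.016). Without preparation 6 its log2 fold change was 1.30 and was not called, nor was it over genes passing edgeR's low-count filter (adjusted p = 0.14).

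After 1 h of Bic, Kcnj2, Kcne4 and Kcnf1 were higher and Kcna4 was lower (1.98% of genes with at least 1 CPM were called higher and 0.419% lower). Kcnf1 is a silent subunit that forms channels only together with Kv2 (chromosome 12, 17172100 to 17176888), and Kcna4 is the A-type member of the Kv1 family (chromosome 2, 107290639 to 107298502). Kcnj2 was at 34.5, 34.1, 45.2, 26.8 and 30.8 CPM, a log2 fold change against the control of 1.75 (SE 0.12, adjusted p = 2.5e-14). Kcne4 reached 3.61, 4.27, 2.53, 2.96 and 1.91 CPM, a log2 fold change of 2.85 (SE 0.27, adjusted p = 1.6e-10). Kcnf1 was at 37.8, 35.3, 47.4, 40.1 and 63.6 CPM in the controls and at 63.6, 58.3, 70.9, 67.8 and 99.2 CPM after 1 h, a log2 fold change of 0.68 (SE 0.12, adjusted p = 0.00028). The control and Bic libraries did not overlap for Kcnj2 and Kcne4, and overlapped for Kcnf1. Kcna4 fell from 45.6, 41.8, 53.2, 57.2 and 45.5 CPM to 38.2, 35.7, 41.7, 38.1 and 34.8 CPM, with a log2 fold change of −0.38 (SE 0.09, adjusted p = 0.013). This fall was not called without preparation 7, where the log2 fold change was −0.31.

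After 2 h of Bic, 9 members were higher and 3 lower, where 8.18% of genes with at least 1 CPM were called higher and 10.4% lower. The median log2 fold change was 0.061 over the members and −0.0020 over those genes. With the preparation as a block, over genes passing edgeR's low-count filter, 16 were higher and 8 lower. Here and below, shares over all genes are those of the fit without the block. No such share was computed for blocked counts, so they are not to be set against those shares. Kcnf1 reached 104, 102, 123, 109.9 and 146 CPM, a log2 fold change of 1.37 (SE 0.12, adjusted p = 2.2e-11). Its 2 h mean of 117 ± 17.98 CPM (SD, n = 5) was above the 1 h mean of 71.98 ± 15.9 CPM. Kcnj2 was at 27.2, 27.1, 29.9, 23.3 and 21.5 CPM, a log2 fold change of 1.33 (SE 0.11, adjusted p = 4.3e-11), and its 2 h mean was below that after 1 h. Kcne4 was at 3.895, 4.46, 2.59, 2.902 and 0.944 CPM, a log2 fold change of 2.78 (SE 0.32, adjusted p = 3.6e-08). For these 3 genes, all Bic libraries lay above all control libraries.

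Among the voltage-gated members, Kcna1, the axonal Kv1 subunit that restrains repetitive firing (chromosome 6, 126640397 to 126646384), stood at 111, 45.99, 108, 97.4 and 82.7 CPM in the controls and at 149, 129.6, 157, 159 and 124 CPM after 2 h. Its log2 fold change was 0.68 (SE 0.13, adjusted p = 0.00036), and the groups did not overlap. Kcnh4, of the ELK family, was at 2.26, 1.36, 1.48, 1.44 and 2.29 CPM and then at 3.56, 3.69, 2.44, 3.42 and 3.04 CPM, a log2 fold change of 0.90 (SE 0.19, adjusted p = 0.00066), with groups that did not overlap. Both genes were higher, in 5 and 5 of 5 preparations. Kcnk12, a K2P subunit, was at 15.8, 13.1, 13.5, 15.2 and 16.4 CPM in the controls and at 17.1, 17.3, 19.5, 17.6 and 22.6 CPM after 2 h, with a log2 fold change of 0.34 (SE 0.10, adjusted p = 0.021). Kcnn3, an SK channel, and Kcnk9, an acid-sensitive K2P channel, had log2 fold changes of 0.30 and 0.25.

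The members that fell were Kcnv1, Kcna4 and Kcnk1. Kcnv1, a silent subunit (chromosome 15, 45106284 to 45114920), went from 30.8, 29.6, 29.4, 32.6 and 35.6 CPM to 15.7, 15.98, 15.2, 18.3 and 20.9 CPM. Its groups did not overlap, and the log2 fold change was −0.89 (SE 0.09, adjusted p = 4.9e-09). Kcna4 had a log2 fold change of −0.32 and Kcnk1 of −0.25. Markers of neuron types moved both ways in this comparison, with Slc17a6 (0.40) and Slc32a1 (0.36) higher and Neurod6 (−0.35) lower, and their part was not tested. Among M-current, G-protein-gated and Kv4 subunits, log2 fold changes that were not called were 0.02 for Kcnq3, 0.07 for Kcnj3, 0.06 for Kcnj6 and −0.07 for Kcnd2. Those of Kcna2 (−0.26), Kcnc1 (0.26), Kcnip3 (0.13), Kcnh1 (0.28), Kcnma1 (0.06), Kcnn2 (−0.03), Kcnj10 (0.29) and Kcnt1 (0.20) were not called either. The block called Kcna2 (−0.25, adjusted p = 0.018), Kcnc1 (0.29, adjusted p = 0.021), Kcnh1 (0.29, adjusted p = 0.016), Kcnj10 (0.30, adjusted p = 0.0056) and Kcnt1 (0.21, adjusted p = 0.030) among these. Calls lost when a preparation was left out were those of Kcna4 (without preparation 1 or 7, −0.33 and −0.26), Kcnk1 (without preparation 1, 3, 7 or 8, −0.25, −0.21, −0.24 and −0.24), Kcnk12 (without preparation 6, 0.29), Kcnk9 (without preparation 1, 3, 6 or 7, 0.28, 0.20, 0.27 and 0.25) and Kcnn3 (without preparation 1, 3 or 7, 0.28, 0.24 and 0.32). Without the control library of preparation 3, the calls of Kcnn3 (0.23, adjusted p = 0.059) and Kcnk9 (0.23, adjusted p = 0.055) were lost, and 8 members were higher and 5 lower.

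**Figure D2:**
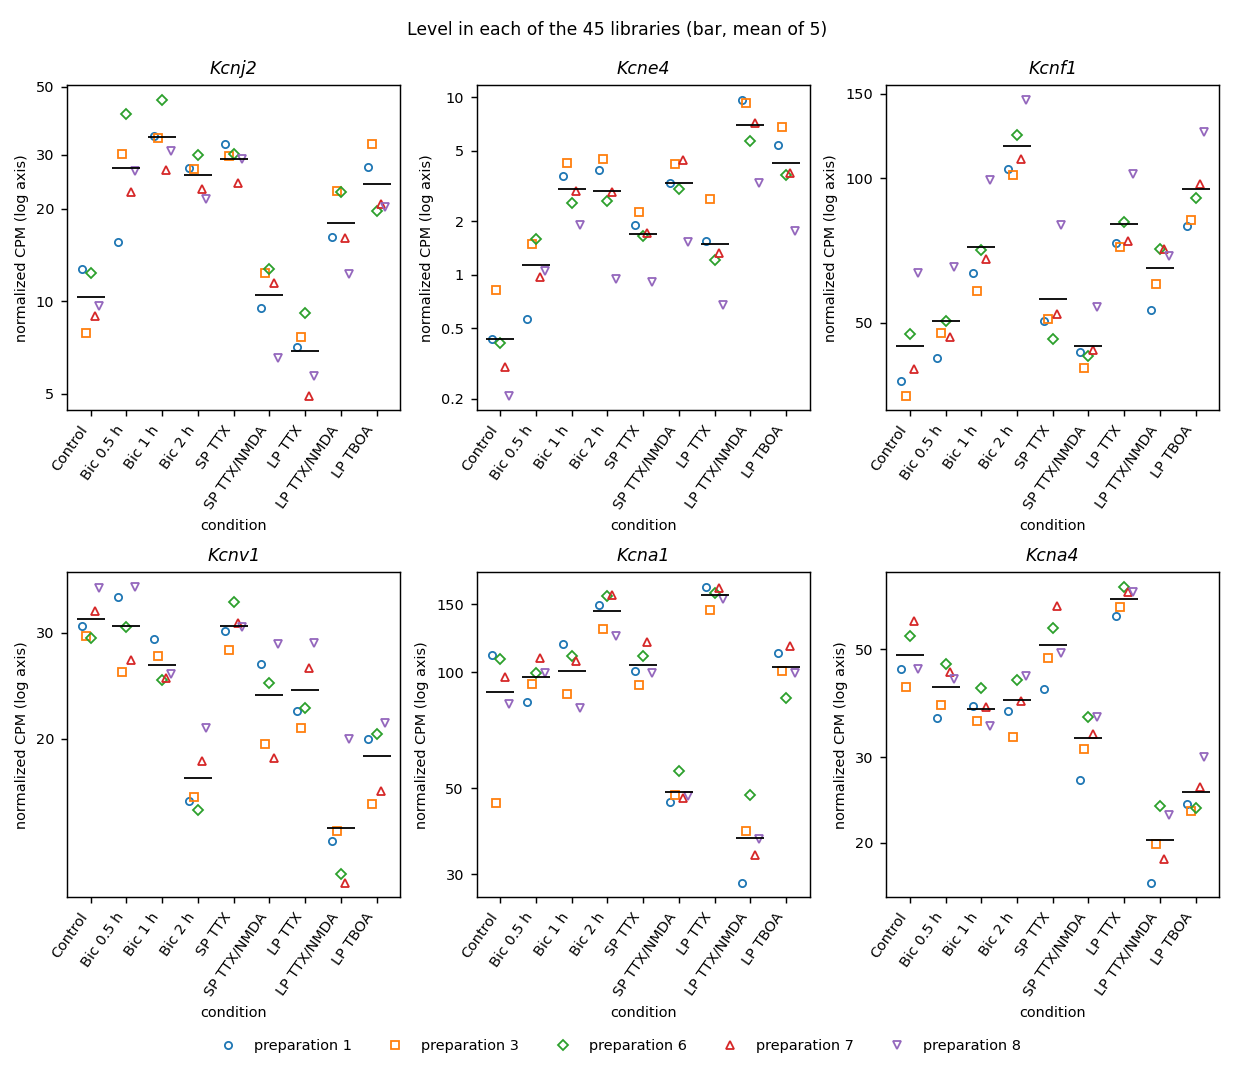
Normalized CPM (vertical log axis) of Kcnj2, Kcne4, Kcnf1, Kcnv1, Kcna1 and Kcna4 in the 45 libraries, by condition (horizontal); points are libraries and bars condition means. Kcna1 means were 144 CPM after 2 h of Bic and 37.2 CPM in LP TTX/NMDA.

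The next comparison asked which of these levels depended on continued firing. In the SP, TTX for 0.5 h was followed by a higher level in 1 member and a lower level in 1 member (0.0294% and 0.515% of genes with at least 1 CPM). With the preparation as a block, 1 was higher and 2 were lower. Kcna4 was at 41.5, 48.001, 55.3, 61.5 and 49.05 CPM, against the 1 h Bic values given above, a log2 fold change of 0.43 (SE 0.08, adjusted p = 0.0043). Kcne4 was at 1.89, 2.25, 1.66, 1.72 and 0.908 CPM, a log2 fold change of −0.91 (SE 0.20, adjusted p = 0.026). Both genes moved back toward their control levels, and for both the groups overlapped. The Kcne4 call was lost without preparation 1 (log2 fold change −0.89), and over genes passing edgeR's low-count filter neither was called (adjusted p = 0.093 for Kcna4 and 0.34 for Kcne4). Kcnj2 had a log2 fold change of −0.24 (adjusted p = 0.88) and stood at 32.5, 29.8, 30.1, 24.4 and 29.2 CPM.

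In the LP, where TTX was present for 1 h, 4 members fell and 3 rose against 2 h of Bic (3.6% and 6.84% of genes with at least 1 CPM). With the preparation as a block, 17 fell and 11 rose. Those that fell had all risen with Bic. Kcnj2 was at 7.08, 7.63, 9.19, 4.94 and 5.74 CPM, a log2 fold change of −1.93 (SE 0.12, adjusted p = 1.9e-13), and its groups did not overlap. Kcne4 was at 1.55, 2.68, 1.21, 1.32 and 0.677 CPM, a log2 fold change of −0.96 (SE 0.27, adjusted p = 0.037). Kcnf1 was at 73.2, 71.9, 81.1, 73.9 and 102 CPM, a log2 fold change of −0.55 (SE 0.09, adjusted p = 9.2e-05), and remained above its control mean of 44.8 ± 11.4 CPM at 80.4 ± 12.7 CPM (SD, n = 5). Kcnk12 was at 16.1, 13.99, 12.2, 10.7 and 17.2 CPM, with a log2 fold change of −0.44 (SE 0.11, adjusted p = 0.010). Since both comparisons use the libraries of 2 h of Bic, a chance deviation there would move them in opposite directions.

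Of the members that rose, Kcna4 and Kcnv1 were those that Bic had lowered. Kcna4 went from 37.3, 32.9, 43.1, 39.2 and 43.96 CPM to 58.6, 61.2, 67.2, 65.5 and 65.5 CPM, a log2 fold change of 0.68 (SE 0.07, adjusted p = 8.5e-08), and its groups did not overlap. Kcnv1 was at 22.2, 20.8, 22.5, 26.2 and 28.8 CPM, a log2 fold change of 0.48 (SE 0.09, adjusted p = 0.0014). Kcnb2, a Kv2 subunit, was at 30.1, 26.9, 28.6, 28.02 and 29.6 CPM and then at 31.2, 31.3, 37.1, 33.1 and 43.6 CPM, a log2 fold change of 0.29 (SE 0.08, adjusted p = 0.028). The Kcne4 call was lost without preparation 1 (−0.85) and by DESeq2 (−1.003, adjusted p = 0.11), and the Kcnb2 call without preparation 6 or 8 (0.28 and 0.22). Kcna1, which was higher after 2 h of Bic, had a log2 fold change of 0.13 (adjusted p = 0.40). Main channels of the other classes, Kcna2 (0.12), Kcnc1 (−0.10), Kcnd2 (0.04), Kcnip3 (−0.09), Kcnq3 (0.13), Kcnh1 (−0.23), Kcnma1 (0.11), Kcnn2 (−0.10), Kcnj3 (0.10), Kcnj6 (0.21), Kcnj10 (−0.03), Kcnk1 (0.20) and Kcnt1 (−0.16), were not called, while the block called Kcna1 (0.13, adjusted p = 0.034), Kcna2 (0.11, adjusted p = 0.037), Kcnq3 (0.12, adjusted p = 0.040), Kcnh1 (−0.24, adjusted p = 0.00047), Kcnj6 (0.21, adjusted p = 0.0082), Kcnk1 (0.21, adjusted p = 0.0020) and Kcnt1 (−0.18, adjusted p = 0.011). The TTX effect differed between protocols in Kcnj2 alone, with a difference (LP minus SP) of −1.70 (SE 0.17, adjusted p = 7.4e-09), where 0.176% of genes with at least 1 CPM had a lower and 0.448% a higher difference and 4 members had an unadjusted p-value under 0.05.

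The active effect asks what NMDA adds when firing is already silenced. In the SP, 14 members fell and 5 rose (7.8% and 1.73% of genes with at least 1 CPM), and the median log2 fold change was −0.097 over the members and 0.014 over those genes. With the preparation as a block, 22 fell and 8 rose. Kcnj2 fell from the SP TTX values above to 9.503, 12.4, 12.7, 11.5 and 6.55 CPM, a log2 fold change of −1.49 (SE 0.12, adjusted p = 4.0e-11). Kcna1 fell from 101, 92.8, 110.0, 119.9 and 99.5 CPM to 46.03, 48.03, 55.4, 47.2 and 47.8 CPM, a log2 fold change of −1.11 (SE 0.07, adjusted p = 5.2e-13). Kcna4 fell to 26.99, 31.2, 36.3, 33.5 and 36.3 CPM, a log2 fold change of −0.64 (SE 0.09, adjusted p = 6.4e-06). The groups did not overlap for Kcnj2, Kcna1 and Kcna4. Kcne4 rose to 3.27, 4.22, 3.04, 4.42 and 1.54 CPM, a log2 fold change of 0.99 (SE 0.22, adjusted p = 0.0042), with groups that overlapped.

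Others that fell in the SP included the G-protein-gated subunits Kcnj6 (−0.54) and Kcnj3 (−0.28), the M-current subunit Kcnq5 (−0.53), the EAG channel Kcnh1 (−0.47), the Kv4 subunit Kcnd2 (−0.36), the Kv2 subunit Kcnb2 (−0.32) with its silent partner Kcnv1 (−0.39), the K2P channel Kcnk10 (−0.34) and the BK channel Kcnma1 (−0.25). Those that rose were the BK beta subunit Kcnmb2 (0.38), the Kv4 partner Kcnip1 (0.34), the K2P channel Kcnk3 (0.32) and Kcnc2, the Kv3 subunit of fast-spiking interneurons (0.28). In a mixed culture, fewer cells of a type and less RNA per cell cannot be told apart. In the same comparison 3 of 4 markers of GABAergic neurons were higher (Gad1 0.39, Lhx6 0.39 and Slc32a1 0.29), and their sum was 1274 to 1678 CPM with TTX and 1498 to 2171 CPM with TTX/NMDA. Of 4 markers of glutamatergic neurons, 3 were lower (Camk2a −0.72, Neurod6 −0.42 and Slc17a7 −0.40), and their sum was 2181 to 2787 CPM and then 1456 to 1949 CPM. Their part in the results was not tested. Calls lost when a preparation was left out were those of Kcnb2 (without preparation 1, 3 or 7, −0.31, −0.30 and −0.27), Kcnc2 (without preparation 6, 0.19), Kcnj3 (without preparation 7, −0.21), Kcnk3 (without preparation 3 or 6, 0.26 and 0.31), Kcnma1 (without preparation 1, 3 or 7, −0.23, −0.25 and −0.20), Kcnmb2 (without preparation 6, 0.28) and Kcnv1 (without preparation 7, −0.31).

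In the LP, 31 members were lower and 7 higher with TTX/NMDA than with TTX (26.9% and 20% of genes with at least 1 CPM were lower and higher). The median log2 fold change was −0.23 over the members and −0.010 over those genes. Among classes given by count, 4 of 6 Kv1 and 2 of 3 Kv4 subunits fell, as did 5 of 7 K2P channels, 4 of 8 silent subunits, 3 of 9 inward rectifiers, 2 of 9 accessory subunits, 2 of 6 EAG, ERG and ELK channels, 1 of 3 SK channels and Kcnma1. The members that rose were 3 inward rectifiers, 3 accessory subunits and the silent subunit Kcns3.

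The Kv1 subunits Kcna1 and Kcna4 fell most. Kcna1 went from 166, 145, 160.5, 165 and 155 CPM to 28.5, 38.8, 48.1, 33.6 and 37.04 CPM, a log2 fold change of −2.10 (SE 0.09, adjusted p = 5.7e-16). Kcna4 went to 16.6, 19.9, 23.8, 18.5 and 22.8 CPM, a log2 fold change of −1.66 (SE 0.09, adjusted p = 1.2e-14). For both genes, every TTX/NMDA library lay below every TTX library. Of the same family, Kcna3 (−0.75) and Kcna6 (−0.35) fell, Kcna2, another axonal subunit, had a log2 fold change of −0.07 (adjusted p = 0.52), and Kcna5 of 0.16 (adjusted p = 0.64). The beta subunit Kcnab2 fell by 0.41 on the log2 scale.

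The Kv2 subunit Kcnb2 fell by 0.73 on the log2 scale, as did 4 of the silent subunits that join Kv2 channels. Of these, Kcng3 (chromosome 17, 83585957 to 83631895) was at 2.32, 2.03, 1.704, 1.89 and 2.62 CPM with TTX and at 0.675, 0.671, 0.905, 0.491 and 0.775 CPM with TTX/NMDA. Its log2 fold change was −1.62 (SE 0.20, adjusted p = 3.3e-07), at a low level, and the groups did not overlap. Kcnv1, Kcng2 and Kcnf1 had log2 fold changes of −0.77, −0.46 and −0.32, and the silent subunit Kcns3 one of 0.39. In the Kv3 and Kv4 families, Kcnc4 (−0.51), Kcnd2 (−0.78) and Kcnd3 (−0.37) fell, Kcnc1 had a log2 fold change of −0.19 that was not called, and of the Kv4 partners Kcnip2 fell (−0.48), Kcnip1 rose (0.23) and Kcnip3, which also acts as a transcriptional repressor, was not called (0.13). The block called Kcnc1 (−0.17, adjusted p = 0.0060) and Kcnip3 (0.16, adjusted p = 0.024).

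The M-current subunit Kcnq5 (chromosome 1, 21398403 to 21961942) was at 151, 146, 147, 159.6 and 151 CPM with TTX and at 69.9, 81.5, 75.1, 64.8 and 94.7 CPM with TTX/NMDA, a log2 fold change of −0.98 (SE 0.08, adjusted p = 8.9e-11), and the groups did not overlap. Kcnq3 (−0.56) fell as well. Kcnh1 (−0.82) and Kcnh3 (−0.30), of the EAG and ELK families, fell. Of the calcium- and sodium-activated channels, Kcnma1 (−0.61) and the SK channel Kcnn3 (−0.32) fell, while Kcnn2 (−0.03) and Kcnt1 (0.04) were not called. The K2P channels Kcnk10 (−0.85), Kcnk4 (−0.54), Kcnk9 (−0.53), Kcnk12 (−0.40) and Kcnk1 (−0.25) fell.

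The G-protein-gated inward rectifier Kcnj6 (chromosome 16, 94748636 to 94997701) went from 22.8, 19.6, 23.8, 18.4 and 18.9 CPM to 8.72, 9.46, 10.02, 7.46 and 10.05 CPM, a log2 fold change of −1.18 (SE 0.10, adjusted p = 2.9e-10), with groups that did not overlap. Its partner Kcnj3 (−0.72) and the strong rectifier Kcnj4 (−0.58) also fell. Kcnj2 moved the other way, from the LP TTX values above to 16.2, 22.9, 22.6, 16.04 and 12.3 CPM, a log2 fold change of 1.38 (SE 0.15, adjusted p = 3.2e-08), and its groups did not overlap. Kcne4 rose to 9.64, 9.28, 5.64, 7.15 and 3.29 CPM, its highest level in any condition, with a log2 fold change of 2.21 (SE 0.25, adjusted p = 8.6e-08), and Kcne1l, another accessory subunit, rose by 0.89. In this comparison 4 of 4 glutamatergic markers were lower, among them Camk2a (−1.13) and Slc17a7 (−0.83), and their sum was 2192 to 2689.9 CPM with TTX and 1043 to 1527 CPM with TTX/NMDA. Of 6 pan-neuronal markers, 3 were lower, with sums of 7420.2 to 7937 and 6121 to 6636 CPM. Their part in the results was not tested. Calls lost when a preparation was left out were those of Kcng2 (without preparation 3, −0.40), Kcnip1 (without preparation 1, 0.20), Kcnk12 (without preparation 1 or 3, −0.31 and −0.35) and Kcns3 (without preparation 1, 3 or 7, 0.32, 0.40 and 0.38).

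**Figure D3:**
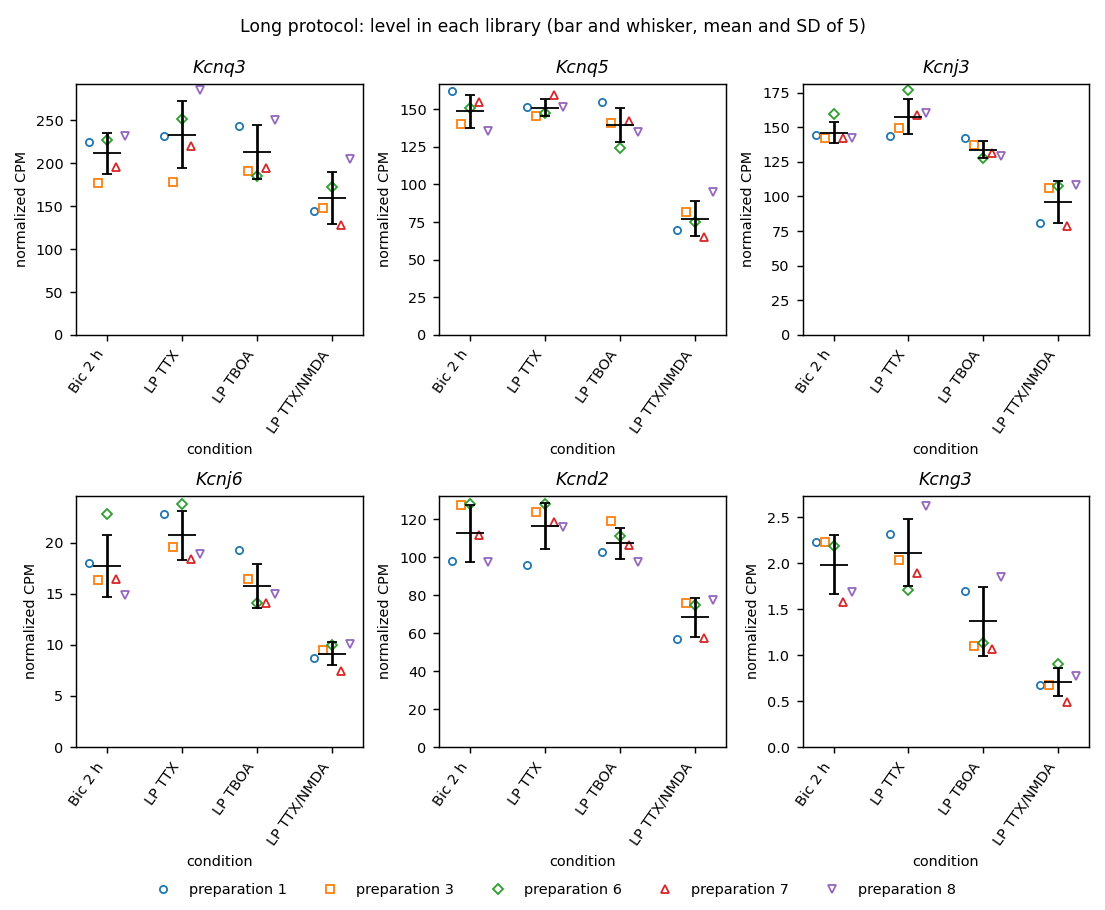
Normalized CPM (vertical axis) of Kcnq3, Kcnq5, Kcnj3, Kcnj6, Kcnd2 and Kcng3 in the 4 conditions with 2 h of Bic; points are libraries, and the mean with its SD (n = 5) is shown for each condition. For Kcnq5 the means were 151 CPM in LP TTX, 139 CPM in LP TBOA and 77.2 CPM in LP TTX/NMDA.

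Kcnj10 (chromosome 1, 172341210 to 172374085) and Kcnj16 (chromosome 11, 110968033 to 111027968) encode the subunits with which astrocytes buffer potassium. Kcnj10 was at 93.2, 92.05, 66.4, 128 and 45.1 CPM in LP TTX and at 193, 153, 112, 239 and 98.3 CPM in LP TTX/NMDA, a log2 fold change of 0.90 (SE 0.19, adjusted p = 0.00068). The groups overlapped, and the ratio within a preparation was 1.66 to 2.18 (median 1.86). For Kcnj16 the log2 fold change was 0.75 and the ratio 1.64 to 1.798 (median 1.71). Of 7 astrocyte markers, 6 were higher and 1, the glutamate transporter Slc1a2, was lower (−0.36). The median ratios of the 6 were 1.79 to 1.92, and that of Slc1a2 was 0.775. The list summed to 1028 to 1555 CPM in LP TTX and to 1185 to 2130.1 CPM in LP TTX/NMDA. Of 6 oligodendrocyte lineage markers, 4 were higher and 0 lower, with sums of 99.04 to 166 CPM in LP TTX and 156 to 309 CPM in LP TTX/NMDA, and 2 of 4 GABAergic markers were higher. The part of all these markers in the rise of both inward rectifiers was not tested.

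**Figure D4:**
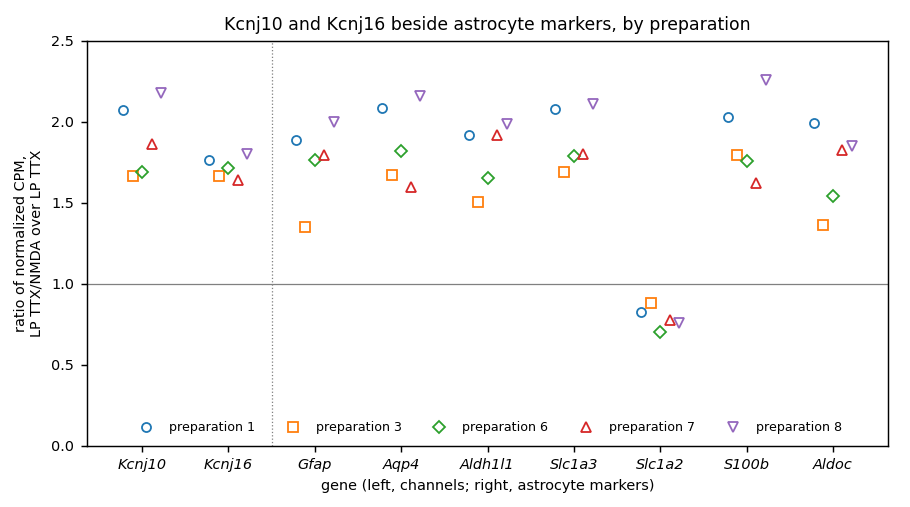
Ratio of normalized CPM in LP TTX/NMDA to LP TTX (vertical axis) in each of 5 preparations (points) for Kcnj10, Kcnj16 and 7 astrocyte markers. Kcnj10 and Kcnj16 have median ratios of 1.86 and 1.71, and Slc1a2 lies below 1 at 0.775.

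The total effect sets LP TTX/NMDA against 2 h of Bic, and so shares libraries with the comparisons above. In it, 37 members were lower and 6 higher (25.1% and 20.2% of genes with at least 1 CPM), with a median log2 fold change of −0.30 over the members and 0.0046 over those genes. Kcna1 went from the 2 h Bic values to those of LP TTX/NMDA with a log2 fold change of −1.97 (SE 0.10, adjusted p = 8.7e-17). Kcng3 was at 2.23, 2.23, 2.19, 1.58 and 1.68 CPM with Bic, a log2 fold change of −1.52 (SE 0.21, adjusted p = 6.8e-07). Kcnh1 went from 47.1, 52.3, 56.7, 43.1 and 34.7 CPM to 22.4, 24.3, 27.7, 20.6 and 19.5 CPM, a log2 fold change of −1.05 (SE 0.10, adjusted p = 7.1e-10). The groups did not overlap for Kcna1, Kcng3 and Kcnh1. Kcne4 was higher, with 1.26 (SE 0.24, adjusted p = 0.00011). As in the active effect, 4 of 4 glutamatergic markers were lower and 6 of 7 astrocyte and 4 of 6 oligodendrocyte lineage markers higher, and their part was not tested. Members called lower here and not called there included Kcns1 (−0.42), Kcnj9 (−0.38), Kcng1 (−0.33) and Kcnh2 (−0.27). The log2 fold changes of Kcna2 (0.05), Kcnip3 (0.04), Kcnn2 (−0.12) and Kcnt1 (−0.13) were not called. Calls lost when a preparation was left out included those of Kcnc1 (without preparation 1 or 3, −0.26 and −0.25), Kcng1 (without preparation 1, −0.25), Kcnh2 (without preparation 3 or 6, −0.22 and −0.24), Kcnip1 (without preparation 1 or 6, 0.19 and 0.22), Kcnmb4 (without preparation 1, 3, 6, 7 or 8, −0.21, −0.17, −0.18, −0.21 and −0.16), Kcnn3 (without preparation 1, 3, 6 or 7, −0.18, −0.24, −0.20 and −0.22) and Kcns1 (without preparation 1, 3, 6 or 7, −0.43, −0.41, −0.38 and −0.36).

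Glutamate spillover was asked about with TBOA, which was added without TTX. Against 2 h of Bic, 3 members were lower and 0 higher in LP TBOA by edgeR (1.27% and 0.0956% of genes with at least 1 CPM), and 17 members had an unadjusted p-value under 0.05. With the preparation as a block, 4 were lower and 1 higher. Kcna4 went from the 2 h Bic values to 24.1, 23.3, 23.6, 26.1 and 29.96 CPM, a log2 fold change of −0.62 (SE 0.08, adjusted p = 1.8e-05). Kcna1 was at 112, 100.5, 85.8, 117 and 99.8 CPM, a log2 fold change of −0.47 (SE 0.07, adjusted p = 0.00037). Kcnj4 was at 103, 107, 138, 109 and 123 CPM with Bic and at 88.01, 89.4, 95.8, 98.1 and 99.6 CPM with TBOA, a log2 fold change of −0.29 (SE 0.07, adjusted p = 0.037). The groups did not overlap for Kcna4, Kcna1 and Kcnj4. The Kcnj4 call was lost without preparation 6 (−0.23) and with all 45 libraries fitted together (adjusted p = 0.067) or edgeR's low-count filter (0.13). Side by side, the log2 fold changes of the total effect were −0.97 for Kcna4, −1.97 for Kcna1 and −0.66 for Kcnj4. Kcng3, Kcnj6 and Kcnq5 had −0.45, −0.14 and −0.08 with TBOA, where none was called, and −1.52, −0.97 and −0.96 in the total effect.

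Set directly against LP TBOA, LP TTX/NMDA had 31 members lower and 7 higher (18.5% and 14.8% of genes with at least 1 CPM). The largest differences were those of Kcna1, −1.48 (SE 0.10, adjusted p = 1.0e-13), Kcng3, −1.05 (SE 0.23, adjusted p = 0.00091), Kcnq5, −0.86 (SE 0.08, adjusted p = 7.2e-10), and Kcnh1, −0.81 (SE 0.09, adjusted p = 3.8e-08). In LP TBOA, Kcng3 was at 1.697, 1.0995, 1.13, 1.07 and 1.85 CPM, Kcnq5 at 155, 141, 124, 142 and 135 CPM and Kcnh1 at 43.7, 44.9, 33.9, 41.5 and 34.3 CPM. The groups did not overlap for Kcna1, Kcng3, Kcnq5 and Kcnh1. Kcnj10 (0.60) and Kcnj16 (0.54) were higher, as were 6 of 7 astrocyte markers, among them Slc1a3 (0.61), and 3 of 6 oligodendrocyte lineage markers. The remaining 1 of 7 astrocyte markers was lower. Of the neuronal lists, 4 of 4 glutamatergic and 1 of 6 pan-neuronal markers were lower, and 2 of 4 GABAergic markers were higher. The part of all these markers in the falls and rises of members was not tested. DESeq2 called 4 members higher in place of 7, without Kcnj10 (adjusted p = 0.12), Kcne4 (0.20) and Kcne1l (0.080). Calls lost when a preparation was left out included those of Kcna4 (without preparation 1, −0.27), Kcnd1 (without preparation 1, 3, 6 or 7, −0.28, −0.26, −0.25 and −0.25), Kcne1l (without preparation 1 or 7, 0.44 and 0.43), Kcnip1 (without preparation 6, 0.16), Kcnj2 (without preparation 1, −0.34), Kcnmb2 (without preparation 6, 0.24), Kcns3 (without preparation 6, 0.34) and Kcnv1 (without preparation 1 or 6, −0.33 and −0.33).

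Whether the active effect differed between protocols was tested directly on 20 libraries. The SP and LP effects share no libraries, although both come from the same preparations. Of the 14 members that fell in the SP, 13 (92.9%) also fell in the LP, which is 41.9% of the 31 that fell there. Of the 5 that rose in the SP, 2 (Kcne4 and Kcnip1) rose in the LP (40% of 5 and 28.6% of 7). The absolute effect was larger in the LP in 51 of 68 members, and the sign was the same in 58. The same overlaps and counts were not computed over all genes. Of genes with at least 1 CPM, 26.9% were lower and 20% higher in the LP, against 7.8% and 1.73% in the SP. These values therefore do not set the members apart from other genes. The difference (LP minus SP) was negative and called in 10 members and positive in 1 (4.65% and 1.45% of genes with at least 1 CPM), or in 25 and 5 with the preparation as a block. Kcnj2 was the 1 member called in opposite directions, with −1.49 in the SP and 1.38 in the LP, a difference of 2.89 (SE 0.22, adjusted p = 6.7e-12). Its level was 29.2 ± 2.97 CPM in SP TTX, 10.5 ± 2.54 in SP TTX/NMDA, 6.92 ± 1.66 in LP TTX and 18.02 ± 4.63 in LP TTX/NMDA (SD, n = 5), so the TTX/NMDA levels differed less than the TTX levels on the log2 scale. Kcna4 fell further in the LP, with a difference of −1.01 (SE 0.13, adjusted p = 2.7e-06), as did Kcna1, with −0.98 (SE 0.12, adjusted p = 1.2e-06), and Kcnj6, with −0.63 (SE 0.14, adjusted p = 0.0075). Other negative differences included Kcnj4 (−0.53), Kcnk10 (−0.50), Kcna3 (−0.47), Kcnq5 (−0.43), Kcnj3 (−0.42) and Kcnk9 (−0.39). Calls lost when a preparation was left out included those of Kcna3 (without preparation 1, 3 or 6, −0.37, −0.51 and −0.48), Kcnj3 (without preparation 1 or 6, −0.40 and −0.39), Kcnj6 (without preparation 6, −0.53), Kcnk10 (without preparation 6, −0.45), Kcnk9 (without preparation 1, −0.36) and Kcnq5 (without preparation 1, −0.39).

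**Figure D5:**
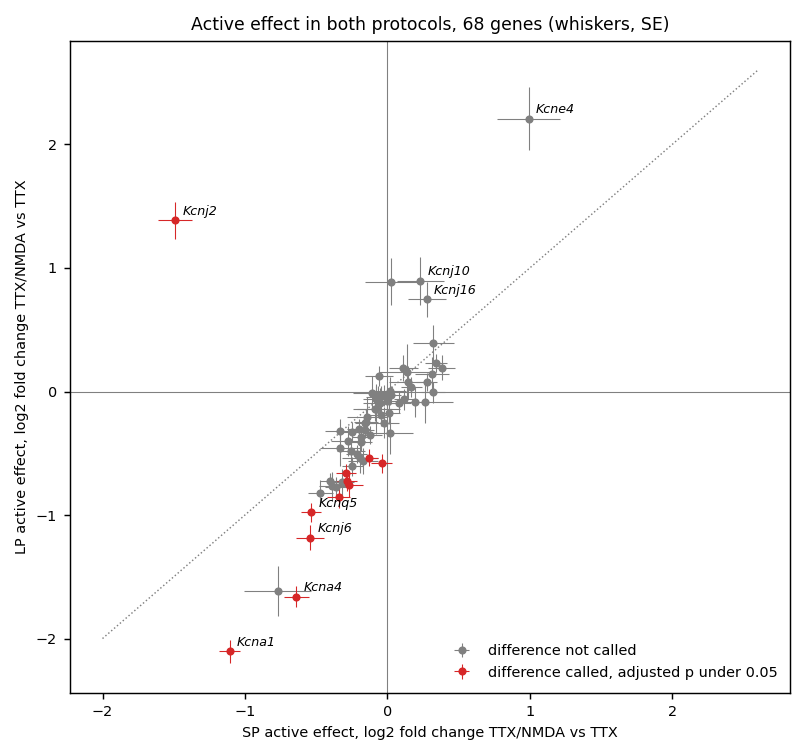
Active effect (TTX/NMDA against TTX, log2 fold change) in the SP (horizontal) and in the LP (vertical) for the 68 members, with standard errors as whiskers; red points have a called difference between protocols. Kcnj2 lies at −1.49 and 1.38, and Kcna1 at −1.11 and −2.10.

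Over the 10 pairwise comparisons, in the fit without the block, Kcna4 and Kcne4 were called in 9, Kcnj2 in 8, and 18 members in none. The 18 were the axonal Kcna2 and the related Kcna5, the beta subunits Kcnab1 and Kcnab3, the EAG and ERG relatives Kcnh5 and Kcnh7, the Kv4 partners Kcnip3 and Kcnip4, the inward rectifiers Kcnj11, the pore of ATP-sensitive channels, and Kcnj12, the K2P channel Kcnk2, the SK channels Kcnn1 and Kcnn2, the silent Kcns2, the sodium-activated Kcnt1 and Kcnt2, the BK relative Kcnu1 and the antisense RNA Kcnmb4os2. In LP TTX/NMDA against LP TTX their log2 fold changes ran from −0.33 (Kcnt2) to 0.19 (Kcnk2). Members of the 18 that were called with the preparation as a block included Kcna2 and Kcnt1, after 2 h of Bic and in LP TTX. Kcnip3 was so called in the LP active effect. Genes of the same chromosomal stretch did not always move together. Kcnj16 and Kcnj2 lie 38.2 kb apart on chromosome 11, and their LP active effects were 0.75 and 1.38, but in the SP they were 0.28 (not called) and −1.49. Kcnj9 and Kcnj10, 11.9 kb apart on chromosome 1, had −0.18 (not called) and 0.90. On chromosome 6, Kcna5, Kcna1 and Kcna6 lie within gaps of 105 and 61.9 kb, with 0.16 (not called), −2.10 and −0.35. Kcna3 and Kcna2, 63.1 kb apart on chromosome 3, had −0.75 and −0.07 (not called). Kcnmb4 and Kcnmb4os2 overlap by 716 bases on opposite strands, and reads were counted by strand.

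Of 20 genes whose proteins bind, anchor or modify potassium channels, 10 were lower and 1 higher in the LP active effect, where 26.9% and 20% of genes with at least 1 CPM were, with a median log2 fold change of −0.24 against −0.010 over those genes and 0.11 over all genes tested. Dpp6, a Kv4 partner, fell (−0.54), as did Cntn2, which clusters Kv1 channels beside the nodes of myelinated axons (−0.63), Lrrc55, a BK subunit (−0.61), and Amigo1, a Kv2 partner (−0.37). Abcc9, a sulfonylurea receptor found in vascular cells, rose (1.02) at a low level (median 0.352 CPM over 45 libraries), and 2 of 5 endothelial and mural markers were higher in the same comparison, whose part was not tested. In the SP active effect 2 of the 20 fell (Cntn2 −0.36 and Ank3 −0.25), against 7.8% of genes with at least 1 CPM. In the total effect 8 fell and 1 rose (25.1% and 20.2% of those genes), in the comparison with TBOA 5 fell (18.5%), and in the other pairwise comparisons none was called.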

How the data were processed

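Per the labels, poly-A RNA went into directional libraries that were read from 1 end (75 cycles). The authors made reads with bcl2fastq 2.20.0.422 and aligned them with STAR 2.5.4b to GRCm38 with the annotation of Ensembl release 94. Per the submitters' processing notes and the paper, featureCounts 1.6.5 assigned reads by strand, left out multi-mapping and multi-overlapping reads, and the authors deposited these raw counts per gene. The counts do not separate isoforms, and members with similar sequences can lose shared reads. Here, CPM were scaled with TMM factors over the 45 libraries, and each pair of conditions was compared with edgeR 4.0.16 (R 4.3.3, quasi-likelihood F test, TMM) on its own libraries, over genes with at least 1 read, without a preparation term. Calls were made at a p-value under 0.05 after Benjamini-Hochberg adjustment over all genes tested. Standard errors are those of the log2 fold change. Replicates are separate culture preparations, and no pair of libraries held identical counts.

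The labels give each library its culture preparation, and their deviations from the condition means correlated within a preparation, at a mean of 0.376 to 0.571 over the 10 comparisons (13601 genes, lowest pair −0.235). Blocked values stand beside counts that they moved by over 1.5 times, without a share over all genes. The fits were tested on simulated data. The alternatives were DESeq2 1.42.0, edgeR's filterByExpr, RLE normalization, that block with filterByExpr, all 45 libraries in a common fit and leaving out each preparation. Genes named with values in every library were the 8 called members with the largest absolute log2 fold change in 2 h Bic against control, LP TTX against 2 h Bic and LP TTX/NMDA against LP TTX, and 4 in each other comparison. Other called members of those 3 comparisons, and large channel genes fixed by name, have at least a log2 fold change. Results of some of these genes are not reported here. The members, lists and tests were chosen with earlier results of these data known. Exon lengths and positions are from GENCODE M21 (Ensembl 96), and promoters from RefSeq (GRCm38.p6).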

Additional observations from a re-analysis of the deposited data

Results flagged for a closer look

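Within groups of 5 libraries, 63 sets of values of the members named with values in every library were examined, and 1 held a library far from the rest, where chance gives about 1 in 20. It was Kcna1 in SP TTX/NMDA, where preparation 6 was at 55.4 CPM and the others at 46.03 to 48.03 CPM.

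The effect of an intervention differed between the LP and the SP in several members by edgeR's quasi-likelihood test of the difference. For TTX, the difference (LP minus SP, log2) of Kcnj2 was −1.70 (adjusted p = 7.4e-09). For TTX/NMDA against TTX it was 2.89 for Kcnj2 (adjusted p = 6.7e-12), and negative for others, among them Kcna4 (−1.01, adjusted p = 2.7e-06), Kcna1 (−0.98, adjusted p = 1.2e-06), Kcnj6 (−0.63, adjusted p = 0.0075), Kcnj4 (−0.53, adjusted p = 0.0043), Kcnk10 (−0.50, adjusted p = 0.025), Kcna3 (−0.47, adjusted p = 0.043), Kcnq5 (−0.43, adjusted p = 0.022), Kcnj3 (−0.42, adjusted p = 0.033) and Kcnk9 (−0.39, adjusted p = 0.0090). The LP TTX level of Kcnj2 was 6.92 ± 1.66 CPM and its SP TTX level 29.2 ± 2.97 CPM (SD, n = 5), and the TTX libraries enter both differences with opposite sign.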

How the results depend on the processing

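Of 180 calls of a member in a comparison, 129 were made under every alternative that tested them, 134 held whichever preparation was left out, 5 were not made by DESeq2, and 0 reversed under any alternative. Fitting all 45 libraries together lost 22 calls, filterByExpr 16, RLE normalization 2 and leaving out the control library of preparation 3 another 2. The replicate block with filterByExpr lost 0. The block, run with filterByExpr, moved counts most, to 16 higher and 8 lower after 2 h Bic, 2 lower with SP TTX, 8 higher and 22 lower in the SP active effect, 11 higher and 17 lower with LP TTX, 1 higher with TBOA, and 5 higher and 25 lower for the difference of the active effect. With filterByExpr, 1 member was higher after 0.5 h Bic and 0 higher and 0 lower with SP TTX. With all 45 libraries fitted together, 1 was higher after 0.5 h Bic, 0 lower with SP TTX, 2 lower with LP TTX and 3 higher in TTX/NMDA against TBOA, where DESeq2 gave 4 higher. Without the control library of preparation 3, an alternative chosen after seeing the data, 8 members were higher and 5 lower after 2 h Bic. Leaving out each preparation gave 1 to 2 higher after 0.5 h Bic, 0 to 1 lower after 1 h (0 without preparation 7), 8 to 11 higher and 1 to 3 lower after 2 h (1 without preparation 1 or 7), and 0 to 2 lower with SP TTX (0 without preparation 1, 2 without 3 or 8). It gave 2 to 6 higher (2 without preparation 6) and 11 to 17 lower in the SP active effect, 2 to 3 higher and 3 to 4 lower with LP TTX, 5 to 7 higher and 30 to 33 lower in the LP active effect, 5 to 7 higher and 31 to 37 lower in the total effect, 0 to 2 higher and 2 to 6 lower with TBOA (2 and 6 without preparation 8), and 4 to 7 higher (4 without preparation 6) and 26 to 32 lower in TTX/NMDA against TBOA. For the difference of the active effect it gave 1 to 3 higher (3 without preparation 8, 2 without 3 or 7) and 5 to 12 lower (5 without preparation 1). The cause of these changes was not tested. Depth limits the least abundant members, with as few as 4 reads in a library for Kcne4, 11 for Kcna5, 11 for Kcng3 and 12 for Kcnh5.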
